A study of Mus musculus with 6 samples.

Results

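Notch signalling passes a signal between touching cells, and 10 of its genes are described here in the newborn mouse pancreas. They are the receptors Notch1, Notch2 and Notch3, the ligands Dll1, Dll4, Jag1 and Jag2, the nuclear partner Rbpj and the target genes Hes1 and Hey1. The 10 genes were taken by name from 35527 genes with a quantified transcript, and all 10 were among the 15805 genes with enough reads to be tested. RNA was made from the whole pancreas of 6 C57BL/6 mice at 1 day of age and sequenced after a strand-specific mRNA library kit. Wild-type mice (WT) gave 3 libraries and miR216a-/- mice (KO), which lack the microRNA miR-216a, gave the other 3. Each library came from a different numbered donor, and the labels give no sex or litter. No transgene, Cre driver or treatment is named for either group, and the sources used here do not say how the allele was made. The series asks what the loss of miR-216a changes in the pancreas, and for these genes the question is whether their RNA levels differ between KO and WT.

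A Notch receptor is cut at the cell surface after it binds a Delta or Jagged ligand on a neighbouring cell, and its intracellular part then moves to the nucleus. There it joins the DNA-binding protein RBPJ, co-activators are recruited, and repressor genes of the HES and HEY families are switched on. In the embryonic pancreas this pathway holds progenitors back from becoming endocrine or acinar cells, with Hes1 as its best known target there. RBPJ also works without Notch in the pancreas, as a partner of the acinar factor PTF1A until its relative RBPJL takes over. In blood vessels of any organ Notch1, Notch4 and Dll4 act in endothelial cells, Jag1 in endothelium and its neighbours, and Notch3 in the mural cells that wrap the vessels.

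Because the 2 groups differ in a microRNA, the sequences that could pair with it are shown first. A microRNA binds 3' UTRs mainly through its seed, bases 2 to 8, which are given in capitals in the mature sequences of the miR-216a hairpin (RefSeq, GRCm38.p6, plus strand). The 5p arm lies at chr11:28757018-28757039 and the 3p arm at chr11:28757058-28757079.
mmu-miR-216a-5p: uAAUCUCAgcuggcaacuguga
mmu-miR-216a-3p: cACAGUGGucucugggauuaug
A site was counted where a 3' UTR holds the complement of seed bases 2 to 8 followed by A (8mer, TGAGATTA for the 5p arm), that complement alone (7mer-m8, TGAGATT) or the complement of bases 2 to 7 followed by A (7mer-A1, GAGATTA). In the longest annotated 3' UTR of 21114 genes, 16.2% held a site of the 5p arm. Of the 10 Notch genes 0 held such a site, with 3' UTRs of 368 to 3742 bases. The same count of 0 came from all 14 of their quantified coding transcripts with a 3' UTR.

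The 3p arm was searched after the data had been seen. It had a site in 23.9% of the 21114 genes and in 4 of the 10 Notch genes, namely the 3 receptors and Rbpj. These sites are printed with their surroundings, 30 bases of the RNA strand each, with the site in capitals (GENCODE M21, GRCm38).
Notch1, chr2:26458779-26458808, minus strand, 7mer-m8: cctgccctgccCCACTGTccccttcctgac
Notch1, chr2:26458179-26458208, minus strand, 7mer-m8: tccctttccagCCACTGTgtgctgggggct
Notch2, chr3:98148405-98148434, plus strand, 7mer-m8: tccattgactgCCACTGTgaagcacattta
Notch3, chr17:32120864-32120893, minus strand, 7mer-A1: cccaggtcctgCACTGTAcaaccctcacct
Rbpj, chr5:53655397-53655426, plus strand, 8mer: cgaagactgtaCCACTGTAagtgccactgc
A seed match describes the letters of the 3' UTR and does not show that the microRNA binds there.

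The libraries were of even depth, from 20565387 to 23028718 estimated reads, and differed in ways that did not all follow genotype. Levels are given as CPM, read counts normalized for library size and composition. Erythroid markers summed to 5941 CPM in WT 1 and 4791 CPM in KO 2, against 1706 to 2837 CPM in the other 4 libraries. Liver markers stood at 446 CPM in WT 1 and at 10.3 to 29.2 CPM elsewhere. The Y-linked gene Ddx3y was at 0.141 CPM in KO 1 and at 61.8 to 102 CPM in the other 5 libraries. The labels give no sex, so for KO 1 sex and genotype cannot be told apart. Acinar markers of the labelled tissue were abundant, with 11 genes that together held 192642 to 301819 CPM. The Mir216a locus was not analysed here, so the groups rest on the genotype label.

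Across the 10 Notch genes, no difference between KO and WT passed the test. With edgeR's quasi-likelihood test and Benjamini-Hochberg adjustment over all genes, 0 of 10 had an adjusted p under 0.05, and the share called over all 15805 genes was 0.0%. DESeq2 also called 0 of the 10, where it called 2.82% of the genes to which it gave an adjusted p, and limma-voom called 0 of the 10 against 0.0127% of all genes. Without adjustment, 1 of the 10 had p under 0.05 and a higher mean in KO (Hey1), and 0 had a lower mean at that p, where the shares over all genes were 5.62% and 7.0%. The KO libraries all lay above the WT libraries for 2 of 10 genes (Jag1 and Hey1), where this held for 9.07% of all genes, and all lay below for 1 (Dll1), where it held for 10.3%. Mean levels were higher in KO for 6 genes and lower for 4, where 8085 of all 15805 genes tested had higher means. Throughout, counts of higher and lower means follow the sign of the fitted log2 fold change. Rbpj, fitted at -8.5e-05, is counted as lower, though its mean CPM was level between the groups. The median log2 fold change of the 10 genes was 0.08, against 0.01 over all genes tested. In whole-organ RNA, fewer cells of a type and less RNA per cell cannot be told apart.

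**Figure D1:**
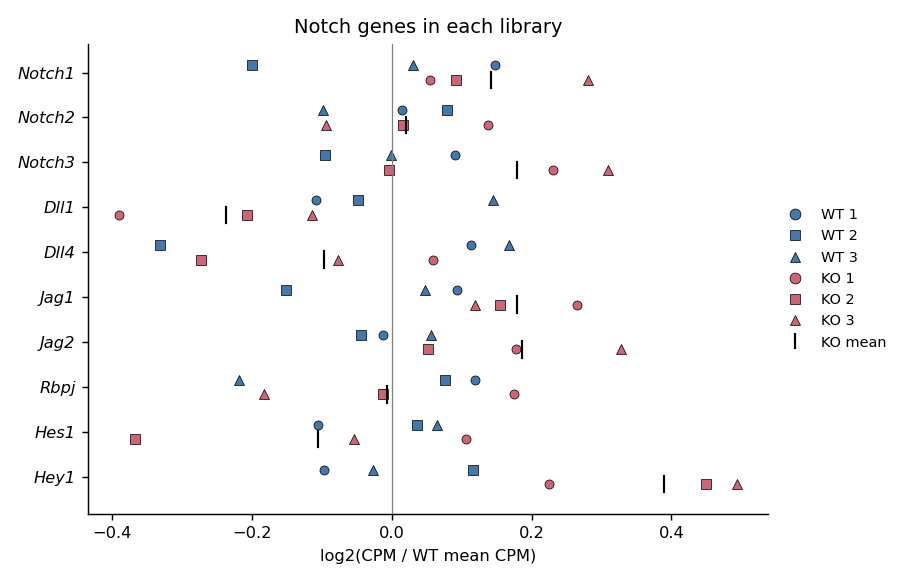
Level of each Notch gene in each library, as log2 of its CPM over the WT mean (x axis), with WT libraries in blue, KO libraries in red, 1 symbol per replicate number and a black tick at the KO mean. The KO points lie right of all WT points for Jag1 and Hey1 and left of them for Dll1, and they overlap for the other 7 genes.

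All 3 receptors had slightly higher means in KO, with groups that overlapped. Notch1 (chr2:26457903-26516663, minus strand), a receptor of vessel sprouting and of many progenitor cells, had 96.6, 76.0 and 89.1 CPM in the WT libraries, in the order of their numbers, and 90.6, 93.0 and 106 CPM in KO. The groups overlapped, with WT 2 lowest and KO 3 highest. Its log2 fold change was 0.15 ± 0.11 (SE), with a 95% interval from -0.11 to 0.41 and an adjusted p of 0.648 (edgeR). This value was 0.055 without WT 2, 0.074 without KO 3 and 0.058 with an offset for transcript length.

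Notch2 (chr3:98013527-98150361, plus strand), which is found in epithelial progenitors and ducts, was at 95, 99.3 and 87.9 CPM in WT and at 103, 95.1 and 88.1 CPM in KO. Its groups covered nearly the same range. On the log2 scale KO differed from WT by 0.02 ± 0.09 (SE), with an interval from -0.19 to 0.24 (adjusted p = 0.951, edgeR). This was the narrowest interval of the 10 genes and corresponds to a level in KO between 0.874 and 1.18 times that in WT.

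Notch3 (chr17:32120820-32166852, minus strand), the receptor of vascular mural cells, was at 75.7, 66.5 and 71.0 CPM in WT and at 83.4, 70.9 and 88.0 CPM in KO. KO 1 and KO 3 exceeded all of WT, while KO 2 lay among them. Its fitted log2 fold change was 0.19 ± 0.11 (SE), with an interval from -0.06 to 0.43 (adjusted p = 0.521, edgeR). It was 0.12 without KO 3 and 0.31 without WT 1 and KO 2. Mural and smooth muscle markers, 11 genes with none at 0, also had their highest sums in KO 1 and KO 3, at 421 and 412 CPM. In KO 2 they summed to 346 CPM, below all of WT at 377 to 388 CPM, unlike Notch3. The part of these markers in the Notch3 values was not tested.

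Of the ligands, the Jagged genes had higher mean levels in KO and the Delta-like genes lower ones, none of them past the test. Jag1 (chr2:137081456-137116644, minus strand) was at 44.2, 37.3 and 42.8 CPM in WT and at 49.7, 46.1 and 44.9 CPM in KO. All KO libraries lay above all WT libraries, by a margin of under 1 CPM between WT 1 and KO 3. The log2 fold change was 0.18 ± 0.10 (SE), with an interval from -0.05 to 0.41 and an adjusted p of 0.504 (edgeR), and it was 0.11 without WT 2.

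Jag2 (chr12:112907819-112929776, minus strand), the second Jagged ligand, was at 25.3, 24.8 and 26.6 CPM in WT and at 28.9, 26.5 and 32.1 CPM in KO. KO 2 lay just under WT 3, and the other KO libraries lay above all of WT. On the log2 scale KO differed from WT by 0.19 ± 0.10 (SE), with an interval from -0.05 to 0.43 (adjusted p = 0.499, edgeR), and by 0.12 without KO 3.

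Dll1 (chr17:15367354-15376872, minus strand), a ligand known from endocrine progenitors, was among the scarcest of the genes, at 5.50, 5.73 and 6.55 CPM in WT and 4.52, 5.13 and 5.47 CPM in KO. The KO values were all lower than the WT values, with KO 3 and WT 1 nearly level. These values rest on 96 to 143 reads per library. Its fitted log2 fold change was -0.23 ± 0.17 (SE), with an interval from -0.63 to 0.16 (adjusted p = 0.629, edgeR). It was -0.15 without WT 3, -0.13 with the length offset and -0.11 with the deposited scaled table.

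Dll4 (chr2:119325784-119335962, plus strand), the endothelial ligand, was at 18.0, 13.2 and 18.7 CPM in WT and at 17.3, 13.8 and 15.8 CPM in KO. The groups overlapped throughout, and WT 2 and KO 2 were the low libraries. The log2 fold change was -0.09 ± 0.16 (SE), with an interval from -0.47 to 0.29 (adjusted p = 0.868, edgeR).

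Rbpj (chr5:53466152-53657362, plus strand), the DNA-binding partner of every Notch receptor, had the same mean in both groups, 65.6 ± 8.07 CPM in WT and 65.6 ± 8.13 CPM in KO (SD, n = 3). Its single values were 71.3, 69.2 and 56.4 CPM in WT and 74.0, 65.1 and 57.8 CPM in KO. WT 3 and KO 3 were low, so the spread lay within the groups and not between them. The 95% interval of the log2 fold change ran from -0.30 to 0.30.

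The target gene Hes1 had a slightly lower mean in KO and Hey1 a higher one. Hes1 (chr16:30064384-30067796, plus strand), a repressor that restrains endocrine differentiation, was at 20.5, 22.6 and 23 CPM in WT and at 23.7, 17.1 and 21.2 CPM in KO. The highest and the lowest value of Hes1 were both in KO. Its log2 fold change was -0.09 ± 0.14 (SE), with an interval from -0.41 to 0.23 and an adjusted p of 0.832 (edgeR).

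Hey1 (chr3:8663359-8667256, minus strand), a repressor best known from arterial endothelium, was at 5.88, 6.81 and 6.17 CPM in WT and at 7.35, 8.59 and 8.85 CPM in KO. All KO libraries lay above all WT libraries, and the means were 6.29 ± 0.480 CPM in WT and 8.26 ± 0.803 CPM in KO (SD, n = 3). On the log2 scale KO differed from WT by 0.39 ± 0.15 (SE), with an interval from 0.04 to 0.75, and the adjusted p was 0.347 (edgeR, 0.0343 before adjustment). Hey1 thus had the smallest p of the 10 genes and still did not pass. Its adjusted p lay between 0.243 and 0.698 over the 15 other fits made. The values rest on 124 to 207 reads per library.

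The summed level of endothelial markers, too, was higher in every KO library than in any WT library. The 14 endothelial markers, none of them at 0, summed to 1055, 955 and 953 CPM in WT and to 1062, 1113 and 1143 CPM in KO. WT 1 and KO 1 were nearly level, and the means were 987 ± 58.6 CPM in WT and 1106 ± 40.9 CPM in KO (SD, n = 3, exact permutation p = 0.1, which is the smallest that 3 against 3 libraries allow, and 0.375 adjusted over 15 marker lists). By gene, 13 of the 14 had higher means in KO, where 8085 of all 15805 genes tested did. All KO libraries lay above WT for 4 of the 14, where this held for 9.07% of all genes, and 10 overlapped. The most abundant of the 14, Pecam1, was at 146 ± 13.9 CPM in WT and 171 ± 6.47 CPM in KO, without overlap. Cdh5, the next in abundance, was at 129 ± 13.9 and 126 ± 10.8 CPM, with overlap and the lower mean in KO. Arterial markers, 6 genes with none at 0, overlapped between the groups at 65.1 to 87.0 CPM in WT and 67.2 to 95.3 CPM in KO. Of the Notch genes of endothelium, Dll4 had a lower mean in KO (16.6 CPM in WT and 15.6 CPM in KO). Notch1 had a higher one (87.2 and 96.5 CPM), and the groups overlapped for both genes. The part of the endothelial levels in the values of Hey1, Jag1, Notch1, Notch4 and Dll4 was not tested.

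Of the other 13 marker lists, 3 did not overlap between the groups. Islet markers, 13 genes with none at 0, had a lower sum in KO (7598 ± 988 CPM in WT and 6259 ± 301 CPM in KO), which lay mainly in the insulin genes. Ins2 was at 3027 ± 301 CPM in WT and 2206 ± 87.2 CPM in KO, and Ins1 at 2245 ± 253 and 1700 ± 169 CPM. Over the 12 islet markers tested, 6 means were higher and 6 lower in KO, with a median log2 fold change of 0.01. The KO libraries lay wholly below WT for 5 of the 12 and wholly above for 0, against 10.3% and 9.07% of all genes. At an unadjusted p under 0.05 (edgeR), 3 were lower and 0 higher, against 7.0% and 5.62%. After adjustment edgeR called 0 of the 12. DESeq2 called 2, where it called 2.82% of the genes to which it gave an adjusted p. The glucagon gene Gcg was at 1400 ± 300.2 CPM in WT and 1429 ± 418 CPM in KO. Proliferation markers, 11 genes with none at 0 and led by Mki67 and Top2a, were at 929 ± 113 CPM in WT and 414 ± 207 CPM in KO. KO 1 was nearest to WT, at 640 CPM. By gene, the KO libraries lay wholly below WT for all 11, where this held for 10.3% of all genes. All 11 were lower at an unadjusted p under 0.05 (edgeR), against 7.0% of all genes. After adjustment 0 of the 11 were called with edgeR and 7 with DESeq2. Intestinal markers, 4 genes with none at 0, were at 19.9 ± 0.518 CPM in WT and 28.8 ± 4.31 CPM in KO. Of these Lgals4 was at 8.55 ± 0.737 CPM in WT and 19.3 ± 3.90 CPM in KO, and Vil1 at 11.2 ± 1.13 and 8.996 ± 1.17 CPM. Duct markers, 11 genes with none at 0, overlapped at 892 to 1049 CPM in WT and 898 to 1019 CPM in KO. The exact permutation p was 0.1 for each of the 3 (0.375 adjusted over the 15 lists), and how these lists bear on the Notch genes was not tested.

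**Figure D2:**
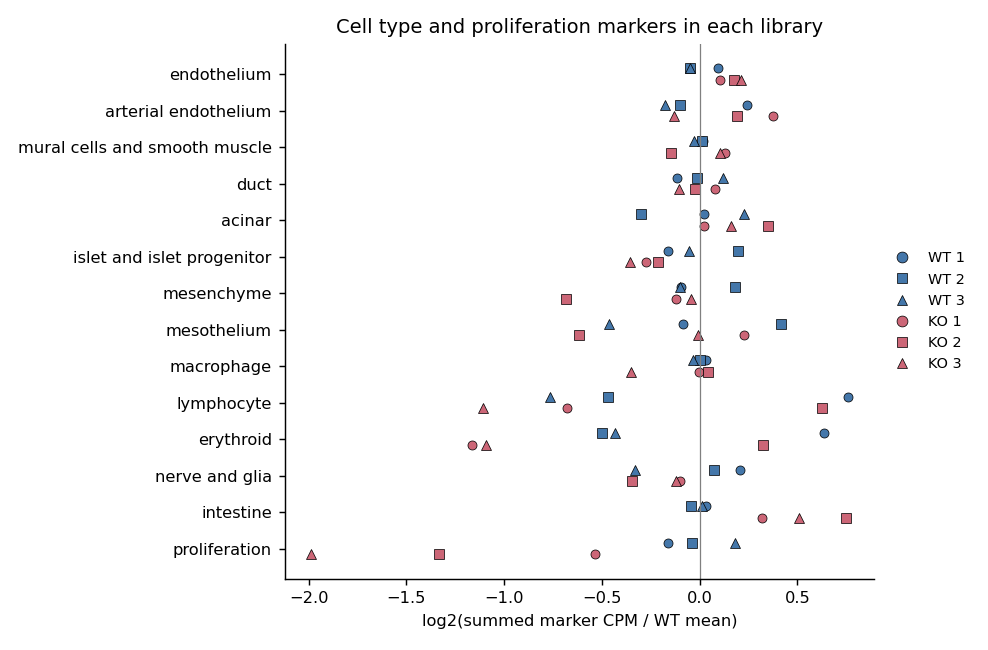
Summed CPM of each marker list in each library, as log2 over the WT mean (x axis), with WT in blue and KO in red. Liver markers are left out because WT 1 stands far above the other libraries. The KO points lie right of all WT points for endothelium and intestine and left of them for islet and proliferation.

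To compare the genes with each other, levels were taken per transcript length, as TPM (Salmon's transcript abundance, scaled to a fixed total per library) summed over the transcripts of a gene. Over all 6 libraries the order of the mean TPM was Hes1 (29.5), Rbpj (18.2), Notch1 (17.3), Jag2 (12.6), Notch3 (12.4), Jag1 (12), Notch2 (11.1), Dll4 (5.80), Hey1 (4.61) and Dll1 (2.98). Hes1 thus stood 9.89 times above Dll1. In that order Hes1 lay above Rbpj in every library, from 24.2 to 34.8 TPM against 14.4 to 21.2 TPM. Notch2, at 9.06 to 12.8 TPM, likewise lay wholly above Dll4, at 4.41 to 7.51 TPM. All other neighbours, from Rbpj to Notch2 and from Dll4 to Dll1, had overlapping ranges, though Notch1 lay above Jag2, and Hey1 above Dll1, within each of the 6 libraries. Notch4, the fourth receptor of mammals, was at 8.34 TPM.

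This order depends on which transcripts are summed, and short ones weigh heavily in TPM. Counting the main coding transcript alone, the order was Hes1 (23.1 TPM), Notch1 (12), Notch3 (11.9), Notch2 (11.1), Jag1 (9.92), Rbpj (9.04), Jag2 (6.58), Dll4 (5.47), Hey1 (4.24) and Dll1 (1.85). Jag2, whose other transcripts are 406 to 1092 bases long, moved down. Rbpj moved down because its other long coding transcripts, Rbpj-202 and Rbpj-208 among them, were left out of this count. The receptors came to stand side by side. In KO 1 and KO 3 the other transcripts of Jag2 were at 9.55 and 10.2 TPM, against 3.35 to 4.996 TPM in the remaining 4 libraries. With an offset for transcript length in edgeR the log2 fold change of Jag2 was accordingly 0.48 in place of 0.19, with an adjusted p of 0.339, in a range of 0.339 to 0.815 over the 15 other fits. Notch3 moved to 0.27 in the same fit (adjusted p = 0.357, in a range of 0.357 to 0.854).

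**Figure D3:**
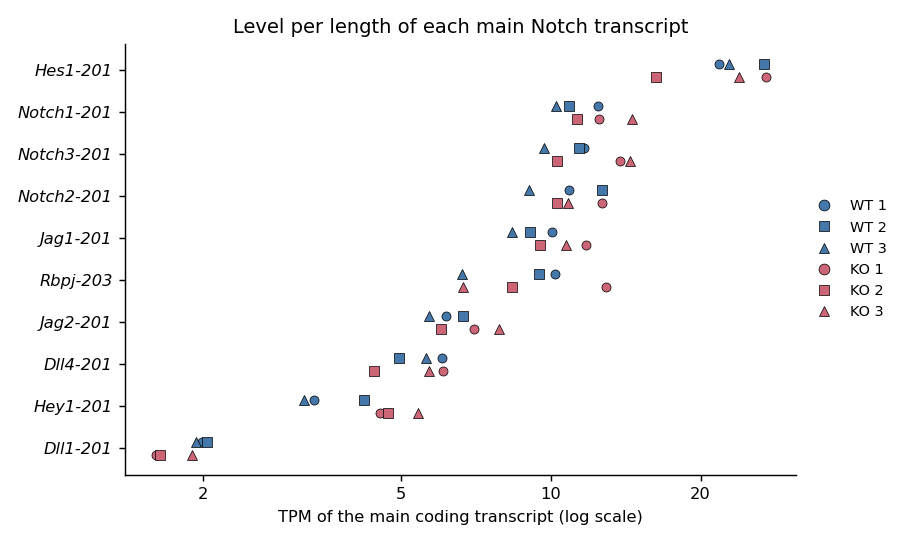
TPM of the main coding transcript of each Notch gene in each library, on a log scale, with WT in blue and KO in red. Hes1 stands at 16.3 to 27.0 TPM, the receptors at 9.06 to 14.5 TPM and Dll1 at 1.61 to 2.04 TPM, and the KO and WT points of a gene lie close together relative to the range over genes.

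The shares of the single receptors and ligands in their pools overlapped between the groups. Of the summed TPM of Notch1 to Notch4, Notch1 held 35.7 ± 6.66% in WT and 34.5 ± 3.65% in KO, Notch2 23.7 ± 4.95% and 21.8 ± 1.39%, Notch3 24.0 ± 2.43% and 26.3 ± 1.96%, and Notch4 16.6 ± 2.63% and 17.5 ± 4.60% (SD, n = 3). No receptor made up most of the pool in any library. The order of the receptors within the pool depends on the secondary transcripts, as in WT 3, where 10.6 of the 20.8 TPM of Notch1 lay outside its main transcript. Among the ligands Jag1 held 36.7 ± 1.37% in WT and 35.8 ± 4.56% in KO, Jag2 34.2 ± 2.50% and 40.2 ± 5.26%, Dll4 19.0 ± 3.10% and 16.0 ± 2.12%, and Dll1 10.2 ± 2.20% and 7.99 ± 1.31%. The Jagged genes made up most of the summed TPM of Dll1, Dll4, Jag1 and Jag2 in every library. Dlk1, a gene of the wider pathway list described below, was not part of this pool. It was at 700 ± 62.4 CPM in WT and 715 ± 140 CPM in KO (SD, n = 3), with groups that overlapped.

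Between 87.0% and 100% of each gene's estimated reads lay on its coding transcripts. Rbpj was the gene whose reads were divided most. Its transcript Rbpj-203 held 46.0 to 69.3% of them, and Rbpj-202 held 33.0, 19.0 and 18.7% in WT and 11.6, 0 and 0% in KO. Rbpj-208 held 0, 14.9 and 21.8% in WT and 8.40, 36.9 and 40.7% in KO. The KO shares of Rbpj-202 were all below those in WT, while Rbpj-208 overlapped. These transcripts are 5252 and 5485 bases long. The split of reads among overlapping transcripts is Salmon's estimate, and no test was made on it. For Hes1 the main transcript held 95.3 ± 0.833% of the reads in WT and 91.5 ± 2.64% in KO, without overlap, and for Jag2 93.2 ± 0.772% and 88.9 ± 3.04%, also without overlap. Of 56 transcripts of the 10 genes, 2 had shares wholly above WT in KO and 3 had shares wholly below, where this held for 4.37% and 3.47% of 84780 transcripts of tested genes, those without reads included. Annotated genes on the opposite strand overlap Notch1, Notch3, Dll1, Dll4 and Rbpj and were not analysed here. The sources used here do not say whether reads were assigned by strand, so reads from those partners cannot be told apart.

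The wider pathway was described from a list of 91 further genes in 8 role groups, of which 85 had enough reads. With edgeR 0 of the 85 were called, as with DESeq2 and limma-voom, and the smallest adjusted p was 0.240. Mean levels were higher in KO for 57 and lower for 28, where 8085 of all 15805 genes tested had higher means. The median log2 fold change was 0.06, against 0.01 over all genes tested. At an unadjusted p under 0.05, 10 genes had higher and 5 had lower means in KO, against 5.62% and 7.0% of all genes. The KO libraries lay wholly above WT for 10 of the 85 and wholly below for 7, against 9.07% and 10.3% of all genes. The 6 genes not tested, Dlk2, Hes2, Hes3, Hes5, Helt and Atoh1, were at 0.257 CPM or less in every library.

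Among the other receptor and ligand genes, Notch4 (chr17:34564268-34588503, plus strand), the endothelial receptor, had the highest log2 fold change of the 5 genes tested. It was at 22.6, 17.7 and 18.7 CPM in WT and at 25.8, 29.7 and 24.7 CPM in KO, with no overlap between the groups. Its log2 fold change was 0.44 ± 0.13 (SE), with an interval from 0.14 to 0.74 and an adjusted p of 0.256 (edgeR). With the deposited scaled table it was 0.19, and over the 15 other fits the adjusted p lay between 0.121 and 0.815. In TPM the groups overlapped, at 6.16 to 9.04 in WT and 7.06 to 10.5 in KO. Cntn1, a contactin described as an unusual Notch ligand in the nervous system, was at 6.16, 6.29 and 5.17 CPM in WT and at 4.15, 3.25 and 3.51 CPM in KO (log2 fold change -0.69 ± 0.19 SE, adjusted p = 0.240, edgeR). Nerve and glial markers, 7 genes with none at 0, overlapped at 37.7 to 54.9 CPM in WT and 37.4 to 44.4 CPM in KO, and their part in the Cntn1 values was not tested.

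Enzymes that put sugars on Notch had means on either side of WT. Of 9 genes 5 had higher and 4 lower means in KO, and the 2 with the smallest p were Xxylt1 (log2 fold change -0.15 ± 0.11 SE) and Gxylt2 (-0.24 ± 0.21 SE). Xxylt1 was at -0.092 without WT 3, and Gxylt2 at -0.44 without KO 1 and -0.074 without KO 3. Lfng, a Fringe gene that tunes which ligand a receptor answers to, was at 44.3 ± 6.97 CPM in WT and 46.2 ± 9.09 CPM in KO (SD, n = 3). In the receptor cleavage group, which holds the ADAM proteases and gamma-secretase, 9 of 10 means were higher in KO, with a median log2 fold change of 0.10. The smallest p were those of the gamma-secretase genes Aph1c (0.49 ± 0.19 SE, adjusted p = 0.354, edgeR) and Psen2 (0.38 ± 0.17 SE, adjusted p = 0.426, edgeR). Aph1c was at 0.87 with the scaled table, and Psen2 at 0.22 without KO 2.

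The group of endocytosis genes and ubiquitin ligases had the highest median, with a log2 fold change of 0.18 and 12 of 15 means higher in KO. Mib1, the ligase that lets a cell send a Delta or Jagged signal, was at 115, 110 and 122 CPM in WT and at 131, 137 and 140 CPM in KO, with no overlap. Its log2 fold change was 0.24 ± 0.08 (SE, adjusted p = 0.296, edgeR). Dtx3, a Deltex ligase gene, was at 58.4, 63.1 and 54.6 CPM in WT and at 68.8, 83.4 and 70.5 CPM in KO (0.34 ± 0.11 SE, adjusted p = 0.266, edgeR).

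Of the co-activators 8 of 10 had higher means in KO, with a median of 0.13, and the smallest p were those of Kat2b, a histone acetyltransferase (0.34 ± 0.13 SE), and Cdk8, a kinase that phosphorylates the Notch intracellular part (0.34 ± 0.13 SE). Co-repressors were split, with 8 means higher and 7 lower in KO and a median of 0.01. In that group Tle2, a Groucho-family gene that HES proteins recruit, had a log2 fold change of 0.30 ± 0.11 (SE), and Ctbp1 one of -0.19 ± 0.08 (SE). The adjusted p of these 4 genes lay between 0.307 and 0.372 (edgeR).

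Among the other HES, HEY and feedback genes the lowest p belonged to Nrarp, a target gene that in turn damps Notch. It was at 14.5, 14.1 and 17.7 CPM in WT and at 12.2, 9.55 and 7.83 CPM in KO, so all KO values were under the lowest WT value. Its fitted log2 fold change was -0.65 ± 0.19 (SE), with an interval from -1.07 to -0.22 (adjusted p = 0.251, edgeR). Over the 15 other fits the adjusted p lay between 0.0705, with DESeq2, and 0.669. Nrarp and Hey1, each a direct Notch target, thus had mean differences of opposite sign, and neither passed the test. Bhlhe41, a HES-related repressor, was at 5.55 ± 1.08 CPM in WT and 3.77 ± 0.634 CPM in KO (SD, n = 3, adjusted p = 0.353, edgeR), also without overlap. The remaining tested genes of this group, among them Hes6, Hes7, Hey2 and Heyl, overlapped between the groups.

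Of the pancreatic partners and downstream genes, Ccnd1, which encodes cyclin D1, was at 132, 119 and 134 CPM in WT and at 120, 84.1 and 78.1 CPM in KO. KO 1 lay among the WT libraries for Ccnd1, as it lay nearest to them for the proliferation markers. The log2 fold change was -0.45 ± 0.16 (SE, adjusted p = 0.303, edgeR), and without KO 1 the adjusted p was 0.0248, in a range of 0.0248 to 0.692 over the 15 other fits. This was the single call in the wider pathway in any of these fits. Without KO 1, 362 genes were called over all genes tested, 275 of them lower in KO. That fit also left out the only library with almost no Ddx3y RNA. Of the acinar genes, Ptf1a was at 16.6 ± 3.11 CPM in WT and 13.8 ± 2.41 CPM in KO, and Rbpjl at 422 ± 77.7 and 394 ± 99.2 CPM (SD, n = 3), both with groups that overlapped.

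**Figure D4:**
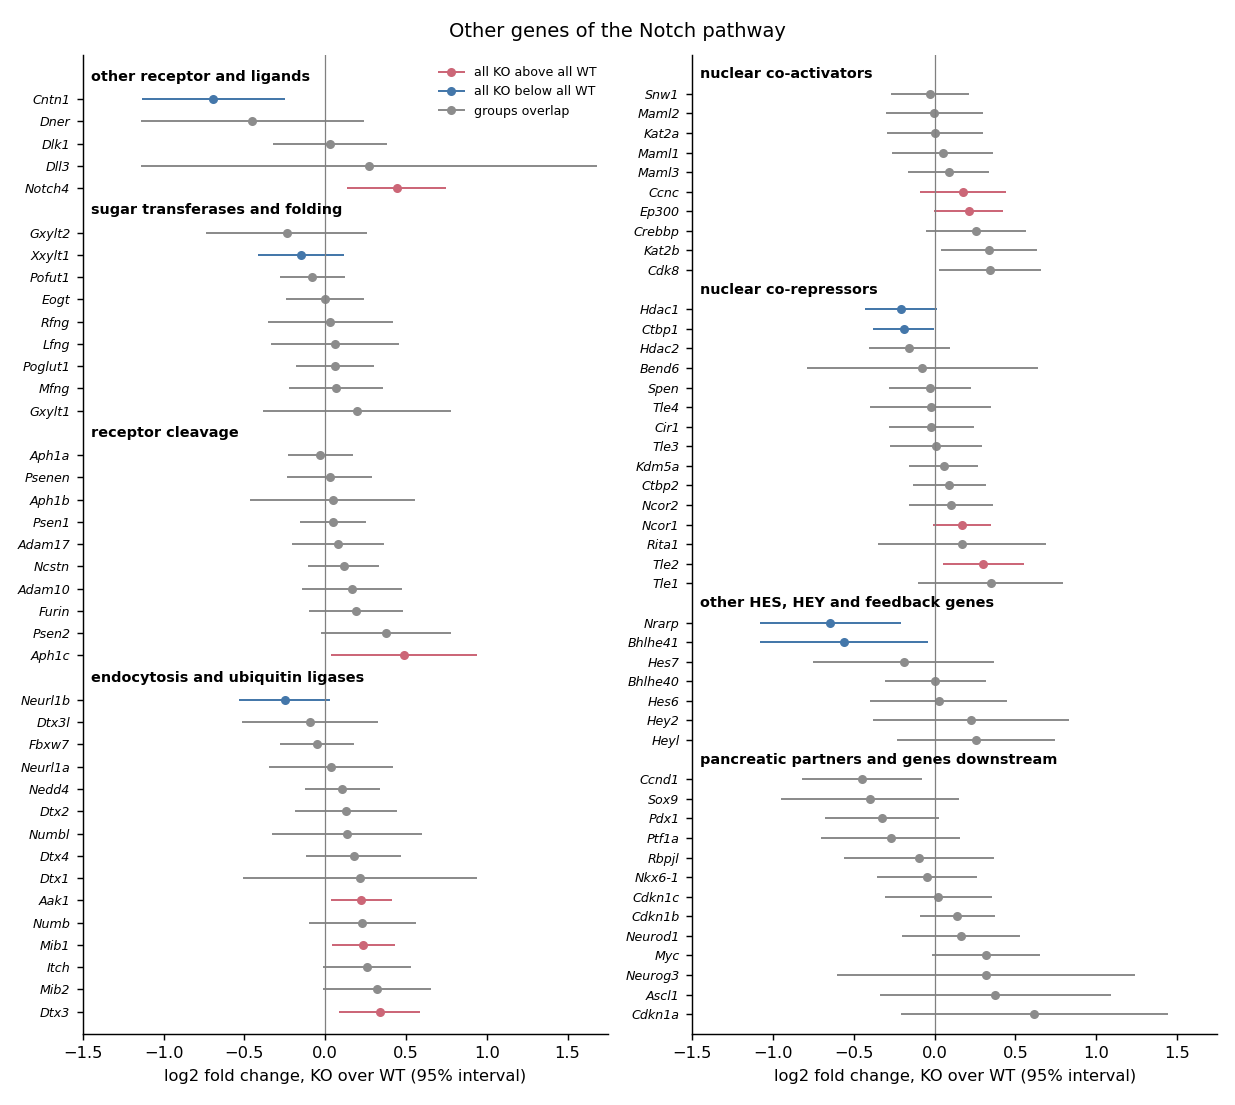
Log2 fold change of KO over WT (x axis) with its 95% interval for 84 tested genes of the wider Notch pathway, grouped by role. Red marks genes whose KO libraries all lie above WT (9 genes), blue those whose KO libraries all lie below (7 genes) and grey the rest. No gene passed an adjusted p of 0.05 in edgeR.

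Sites of the miR-216a-5p seed were found in 21 of the 91 wider pathway genes, against 16.2% of the 21114 genes searched. Of the 91, 18 held an 8mer or 7mer-m8, against 12.5% of all genes searched. An 8mer was present in 9 of them, and 4 of these are printed because they belong to different steps of the pathway, a choice made after their values were seen. Each stretch is 30 bases of the RNA strand, with the site in capitals.
Pofut1, chr2:153266326-153266355, plus strand: ctcctaagtgcTGAGATTAggagtgtctac
Itch, chr2:155226232-155226261, plus strand: ctagagatttaTGAGATTAaattaagagat
Ctbp1, chr5:33248131-33248160, minus strand: gcaagtcagttTGAGATTAtttttcctttt
Cdkn1b, chr6:134922730-134922759, plus strand: ctcctgagtgcTGAGATTAgaggttgtgtg
The log2 fold changes of the 9 genes ran from -0.19 to 0.38, with 7 higher and 2 lower means in KO, and their smallest adjusted p was 0.372 (edgeR). Over the 21 genes with any site, 16 means were higher in KO and the median log2 fold change was 0.18, against 41 of 64 and 0.05 for the tested pathway genes without a site. Over all tested genes with a searched 3' UTR, 57% of 2740 genes with a site had higher means in KO, against 49.6% of 12373 without, and the medians were 0.04 and -0.0020. Genes with a site had longer 3' UTRs, with medians of 2720 bases against 1320 in the pathway and 2736 against 1139 over all genes. For the 3p arm, 54.7% of 4174 tested genes with a site had higher means in KO, against 49.6% of 10939 without. The median log2 fold changes were 0.03 and -0.0029 there, and the median 3' UTRs 2503 and 1038 bases. These counts are a description of the lists, and no test was made on them.

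Promoter letters were read for the Notch genes because RBPJ can bind the genes of its own pathway. RefSeq windows from 250 bases before to 50 after a start site (GRCm38.p6) were at hand for 8 of the 10 genes, all but Hes1 and Hey1. The RBPJ motif GTGGGAA was present on either strand in 6.38% of 32851 windows and in those of 0 of the 8 genes. Its shorter form TGGGAA, which the longer one contains, was present in 25.6% of windows. It was in 2 of the 10 windows of the 8 genes, both of them windows of Rbpj. The stretches are printed in the direction of the gene, with the motif or its complement in capitals.
Rbpj, chr5:53590185-53590214: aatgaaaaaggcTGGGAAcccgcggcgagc
Rbpj, chr5:53590269-53590298: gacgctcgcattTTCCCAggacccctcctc
The N box CACNAG, a motif of HES repressors, was present in 42.5% of windows and in 5 of the 10 windows of the 8 genes. Those 5 windows belong to Notch1, Notch2, Notch3, Dll1 and Dll4. In Notch1 matches on both strands overlap around the start site.
Notch1, chr2:26503808-26503837, minus strand: cgctcagagcctCACTAGtgcctctgccgc
A match or its absence describes these windows only.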

How the data were processed

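Whole pancreas RNA from 3 WT and 3 KO mice was analysed, with groups taken from the genotype label. Per the submitters' processing notes, reads were processed with bcl2fastq, Salmon 0.13.1 and DESeq2 1.24.0 (mm10). The authors deposited, for each library, Salmon's estimated counts and TPM for 116248 transcripts, with transcript and effective lengths, and for the whole series a gene table of 17324 genes that holds a scaled signal and not counts. Of the transcripts, 115995 matched GENCODE M21 by versioned identifier, all with equal length. Gene sums of these counts (Python 3.11.15, pandas 2.3.3) covered 35527 genes and were made whole by rounding. The depth of the WT libraries was 20889909, 22922738 and 22491960 reads, and that of the KO libraries 20565387, 21401039 and 23028718.

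Groups were compared with the quasi-likelihood test of edgeR 4.0.16 (R 4.3.3), with TMM factors and the default settings of filterByExpr, Benjamini-Hochberg adjusted over 15805 genes and called at an adjusted p under 0.05. The biological coefficient of variation was 18.4%. CPM values are TMM-normalized, errors are SDs over 3 libraries or SEs of a fold change, and each library pair differed beyond sampling noise (chi-square per degree of freedom 22.5 to 85.8). TPM values were used as deposited, to compare genes with each other. Marker lists were compared as sums with a two-sided exact permutation test. The edgeR, DESeq2 and limma-voom steps were tested on simulated data.

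Alternatives were DESeq2 1.42.0 and its size factors, upper-quartile factors, limma-voom (limma 3.58.1), no filter, at least 1 CPM in 3 libraries, a transcript length offset, the scaled table with limma on log2(value + 1), each library left out, and WT 1 and KO 2 left out together. The 10 genes, the lists and the tests were chosen with earlier results of these data known. All 10 genes are named; of each pathway group the 2 genes with the smallest p, and of each marker list without overlap the 2 most abundant, were named by rule, except 1 pathway gene that is counted but not reported here. Other genes named were chosen after their values were seen.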

Additional observations from a re-analysis of the deposited data

How the results depend on the processing

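No Notch gene was called in any of the 15 other fits. Over all tested genes the count of 0 became 419 with DESeq2 (127 higher, 292 lower), 2 with limma-voom, 1 without a filter, 2 without WT 1 and KO 2, and 0 to 362 when each library was left out, the 362 (87 higher, 275 lower) without KO 1. In the wider pathway it became 0 to 1, with Ccnd1 called without KO 1. The median log2 fold change of the 10 genes, 0.08, was 0.15 without WT 1 and KO 2, and 0.05 (without KO 1) to 0.12 with each library left out. Signs turned for genes whose difference was near 0, and the cause was not tested. Rbpj was 0.016 with the scaled table, 0.015 with the length offset and 0.068 without WT 1 and KO 2, and -0.10 to 0.084 with libraries left out. Hes1 was 0.064 with the scaled table and 0.069 with the length offset, and -0.20 to 0.025 with libraries left out. Dll4 was 0.050 without WT 1 and KO 2 and -0.23 to 0.0076 with libraries left out, and Notch2 was -0.038 to 0.079. The other 6 genes kept their sign throughout. Seed sites counted 4 genes for the 3p arm in place of 0, and promoter motifs 1 gene for TGGGAA in place of 0.

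With 3 libraries a group, the 95% intervals of the 10 log2 fold changes together reach from -0.63 (Dll1) to 0.75 (Hey1). Where leaving out a library left 2 in a group, the fit pooled the spread over both groups. No paired analysis was possible because replicate numbers follow sample order and donor numbers are not shared between the groups. Groups of 3 are too small for a test of single outlying libraries.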
